A study of Mus musculus with 60 samples.

Results

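Brown adipose tissue (BAT) was compared with skeletal muscle in 5 vehicle-treated obese mice. The 10 libraries were the BAT and the skeletal muscle library of mice 1 to 5, out of 60 libraries from 6 tissues in the series, and both tissues of a mouse were paired by the mouse number in the labels. Genes that averaged 0.5 FPKM or more across the 10 libraries were tested, 13572 of the 54532 listed. FPKM, a fragment count per kilobase of transcript scaled to library depth, is a level per transcript length. The mice were wild-type C57BL/6 males with diet-induced obesity, fed a high-fat diet from 12 weeks of age for 16 to 20 weeks and given vehicle daily by intraperitoneal injection for 1 week at about 28 weeks of age. The series asked how sulforaphane (SFN), an isothiocyanate that activates the transcription factor NRF2, changes gene expression in obese mice. Its other arm received 5 mg/kg SFN, and the BAT and muscle libraries of those 5 mice (mice 6 to 10) served here as a repeat in other animals. The labels call the samples brown adipose tissue and skeletal muscle, and which muscle was sequenced was not given in the sources used here. Libraries were made from poly A-enriched mRNA of whole tissue, so fewer cells of a type and less RNA per cell cannot be told apart.

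Brown fat and skeletal muscle are the main heat-producing tissues of rodents, and both are rich in mitochondria. Brown adipocytes burn fatty acids and dissipate the proton gradient through uncoupling protein 1 (UCP1) without making ATP, under the control of noradrenaline acting on β-adrenergic receptors. Muscle fibres couple the same respiratory chain to ATP synthase and spend the ATP on myosin and on calcium pumps, with glycogen and phosphocreatine as rapid stores, and heat arises there from contraction and calcium cycling.

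The identity of the tissues was checked first. *Ucp1* (ENSMUSG00000031710, chr8:83290352-83298452, plus strand, GRCm38), the uncoupling protein, had 3361, 2442, 3715.5, 3605 and 4410.2 FPKM in the BAT of mice 1 to 5, and was at 0 in all 5 muscle libraries. Set against 3 reads over the muscle group, *Ucp1* was at least 105690-fold higher in BAT (adjusted p = 7.21e-08). *Acta1* (ENSMUSG00000031972, chr8:123891769-123894751, minus strand), skeletal muscle α-actin, had 102, 0.906, 1453, 0.314 and 262.5 FPKM in BAT, against 29405, 30110.2, 30772, 32409.6 and 28307 FPKM in muscle. Every muscle library therefore exceeded every BAT library (log2 fold change -10.09 ± 1.85 (SE), adjusted p = 0.00231), and the BAT libraries differed widely among themselves. Fold changes here are BAT over skeletal muscle on the log2(FPKM + 0.1) scale. For a gene with all 5 mice on the same side and no overlap, the exact test over sign flips of the 5 pairs gives p = 0.0625 and the exact permutation of the 10 libraries gives p = 0.00794, in both cases the smallest p that this number of mice allows.

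The promoters of 4 genes that the results turn on are shown for the differences at these genes: *Ucp1* and *Cox6a1* were far higher in BAT, the second with the highest log2 fold change of the nuclear respiratory chain genes, and *Acta1* and *Ckm* (muscle creatine kinase) were among the 10 lowest fitted log2 fold changes. The sequences are from RefSeq on GRCm38.p6, 250 bases before to 50 bases after the annotated start, 5′ to 3′ on the strand of the gene, at chr8:83290098-83290397 (plus) for *Ucp1*, chr8:123894726-123895025 (minus) for *Acta1*, chr7:19410844-19411143 (plus) for *Ckm* and chr5:115348909-115349208 (minus) for *Cox6a1*. Capitals mark motifs found on either strand: TGACG (a cAMP response core) and AGGTCA (a nuclear receptor element) in *Ucp1*, the E-box CAGCTG, a CArG box, the MCAT motif CATTCC and TATAAA in *Acta1*, CAGCTG in *Ckm*, and the NRF1 core GCATGCG (on both strands) and CCAAT in *Cox6a1*. Different motifs did not overlap.
Ucp1: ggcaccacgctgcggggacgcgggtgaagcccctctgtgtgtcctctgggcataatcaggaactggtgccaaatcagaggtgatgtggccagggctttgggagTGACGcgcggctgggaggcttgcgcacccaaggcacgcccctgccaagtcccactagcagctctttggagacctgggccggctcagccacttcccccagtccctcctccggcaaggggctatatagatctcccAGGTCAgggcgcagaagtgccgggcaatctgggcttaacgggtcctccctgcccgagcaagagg
Acta1: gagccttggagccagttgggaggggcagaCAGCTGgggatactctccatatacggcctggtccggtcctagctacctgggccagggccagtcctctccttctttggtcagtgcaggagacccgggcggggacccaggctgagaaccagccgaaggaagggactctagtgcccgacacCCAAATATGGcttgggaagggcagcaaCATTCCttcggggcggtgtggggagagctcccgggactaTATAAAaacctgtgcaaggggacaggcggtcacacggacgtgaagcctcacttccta
Ckm: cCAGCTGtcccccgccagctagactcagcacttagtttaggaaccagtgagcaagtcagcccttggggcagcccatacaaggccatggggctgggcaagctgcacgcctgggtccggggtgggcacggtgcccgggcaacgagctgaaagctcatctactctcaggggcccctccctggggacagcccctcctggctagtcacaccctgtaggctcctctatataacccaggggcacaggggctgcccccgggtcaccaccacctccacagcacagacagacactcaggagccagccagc
Cox6a1: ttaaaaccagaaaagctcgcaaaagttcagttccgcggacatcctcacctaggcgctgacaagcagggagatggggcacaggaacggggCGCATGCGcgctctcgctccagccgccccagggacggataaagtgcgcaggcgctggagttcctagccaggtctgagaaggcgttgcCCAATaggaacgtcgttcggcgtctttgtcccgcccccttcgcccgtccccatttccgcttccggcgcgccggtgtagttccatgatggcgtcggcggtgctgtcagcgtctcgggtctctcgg
Promoters were matched by symbol for 44 of 62 sarcomere and excitation-contraction genes, 67 of 82 nuclear OXPHOS genes and 25 of 33 thermogenic genes. CAGCTG was present in 44.2% of the 52 sarcomere and excitation-contraction promoters, against 16.3% of all 32851 promoters of the same length. The CArG box was in 13.5% of the same contractile promoters, against 1.63% of all. The MEF2 motif was in 7.69%, against 0.557% of all. GCATGCG was in 16.7% of the 72 OXPHOS promoters, against 3.58% of all. In the 34 thermogenic promoters, AGGTCA was in 17.6%, against 16.3% of all, and TGACG in 23.5%, against 20.8% of all and 36.1% of the OXPHOS promoters. CATTCC was in 21.2% of the contractile and 23.5% of the thermogenic promoters, against 14.7% of all, TATAAA in 17.3% of the contractile promoters, against 13.6%, and CCAAT in 40.3% of the OXPHOS promoters, against 37.4%. These matches are descriptions of the sequence only.

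Several BAT libraries held muscle transcripts, and the library of mouse 3 stood apart. The sarcomere genes summed to 422, 89.8, 4848, 91.9 and 911 FPKM in the BAT of mice 1 to 5, against 109764 to 130203 FPKM in muscle. All 62 measured sarcomere and excitation-contraction genes had their highest BAT level in mouse 3, where the median gene stood at 4.64% of its muscle mean, while it stood at 0.341%, 0.00604%, 0.00947% and 0.872% in mice 1, 2, 4 and 5. The BAT of mice 2 and 4 was thus nearly free of muscle RNA, with *Ckm* at 0 in both. In the other direction, muscle held adipocyte transcripts: *Adipoq*, the hormone adiponectin, had 15.1, 9.24, 11.9, 13.9 and 37.8 FPKM in muscle, highest in mouse 5, against 482 to 599 FPKM in BAT. *Fabp4* had 53.6 to 73.8 FPKM and *Plin1* 2.34 to 9.57 FPKM in the same muscle libraries, in which *Ucp1* was at 0. Recovered reads per library numbered 15769229 to 19607120 in BAT and 16614280 to 19637841 in muscle, and genes of the mitochondrial genome took 20.8 to 23.1% of reads in BAT and 10.0 to 15.1% in muscle.

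**Figure D1:**
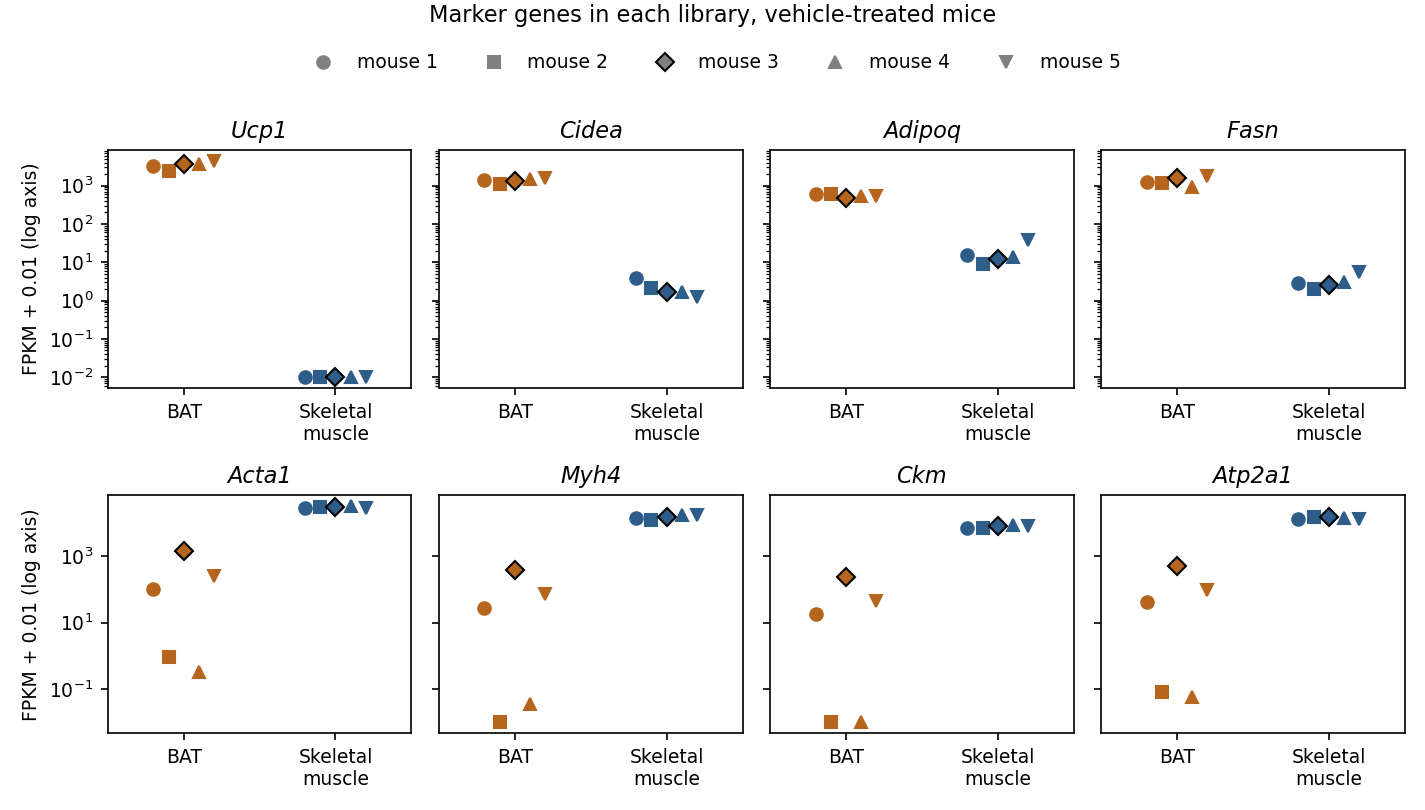
FPKM + 0.01 on a log axis for 4 fat genes (top row) and 4 muscle genes (bottom row) in each library, BAT left and skeletal muscle right, 1 symbol per mouse and a black edge for mouse 3. *Ucp1* is at 0 in all 5 muscle libraries, and the BAT of mouse 3 is the highest BAT library for all 4 muscle genes.

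Most genes differed between the tissues. By limma, 5402 of 13572 genes were higher in BAT and 5204 lower at an adjusted p under 0.05, which is 39.8% and 38.3% of the genes tested and 78.1% in either direction, and 2966 did not pass. At least 2-fold differences were held by 3015 genes higher in BAT (22.2%) and 2696 lower (19.9%), and at least 8-fold differences by 548 (4.04%) and 856 (6.31%). The groups did not overlap for 33.7% of genes on the BAT side and 34.7% on the muscle side. A list of genes is therefore read below against shares of 39.8% higher and 38.3% lower and a median log2 fold change of 0.04 over all genes. The deposited values were scaled so that FPKM summed to 442989 to 517094 in BAT and 594341 to 675792 in muscle. With each library rescaled to the same total, the median over all genes moved to 0.42 and 66.1% of the calls were higher in BAT, against 50.9% with the values as deposited, so small differences depend on the scaling and are given below with both.

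The tissue comparison was repeated in SFN mice. Of 10372 genes called in vehicle mice and tested in both arms, 10258 had the same direction in the 5 SFN mice, 9495 had it and also passed there, and 6 passed in the opposite direction. Among 5508 of these genes with at least a 2-fold difference, 5488 had the same direction and 0 passed the other way. The tissue difference itself was then compared between SFN and vehicle mice by an interaction term, and 0 of 13536 genes passed in limma (0% called) or in edgeR, although 1398 had an unadjusted p under 0.05 in limma and 1332 in edgeR. The smallest adjusted p was 0.121, for *Zic1*, a transcription factor of the brown fat lineage, and the uncharacterised transcript *4933431C10Rik*. *Zic1* averaged 1.90 FPKM in the BAT and 0.191 FPKM in the muscle of SFN mice, against 1.58 FPKM in the BAT and 1.09 FPKM in the muscle of vehicle mice. *Tkt*, the transketolase of the pentose phosphate pathway, averaged 221 FPKM in the BAT and 3.46 FPKM in the muscle of SFN mice, against 370 and 2.72 FPKM in the BAT and muscle of vehicle mice, a difference of -1.09 ± 0.17 (SE, log2) that did not pass (adjusted p = 0.144). In simulated data the interaction test recovered 6 of 50 genes with a 2-fold difference in limma and 18 of 50 in edgeR. At 4-fold it recovered 43 and 46 of 50. The 0 calls therefore do not show that the tissue differences were equal in both arms.

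Thermogenic genes were higher in BAT. Of 33 measured, 28 were higher, 1 was lower and 4 did not pass, with a median log2 fold change of 3.45. A large difference was that of *Adrb3*, the β3-adrenergic receptor through which noradrenaline acts on adipocytes. It had 115, 120.6, 166, 154 and 185.5 FPKM in BAT, against 0.0267, 0.0293, 0.0528, 0.0254 and 0.106 FPKM in muscle (log2 fold change 9.97 ± 0.09 (SE), adjusted p = 7.46e-08). *Cidea*, a lipid droplet protein of brown adipocytes, had 1422, 1106.6, 1333, 1475 and 1544 FPKM in BAT, against 3.87, 2.13, 1.68, 1.62 and 1.23 FPKM in muscle (log2 fold change 9.38 ± 0.24 (SE), adjusted p = 7.35e-07). Neither gene had any overlap between the tissues. *Otop1*, a proton channel, averaged 75.3 ± 10.9 FPKM in BAT and 0.225 ± 0.0855 FPKM in skeletal muscle (SD, n = 5 each), and *Kcnk3*, a potassium channel that limits depolarisation in brown adipocytes, averaged 68.8 ± 6.58 FPKM in BAT and 0.267 ± 0.185 FPKM in skeletal muscle. *Letmd1*, a mitochondrial protein needed for brown fat thermogenesis, averaged 169.7 ± 26.1 FPKM in BAT and 3.04 ± 0.331 FPKM in skeletal muscle. In all, 19 of the 33 were at least 8-fold higher in BAT, these 3 included. *Elovl3*, an elongase of very long chain fatty acids, had 15.0, 13.6, 15.6, 10.9 and 30.6 FPKM in BAT and 0 in all 5 muscle libraries, at least 472-fold higher. *Slc27a2*, a fatty acid transporter and acyl-CoA synthetase, had 12.6 to 20.2 FPKM in BAT and 0 in all muscle libraries, at least 1049-fold higher. *Dio2*, the deiodinase that makes active thyroid hormone, had 8.93, 6.78, 13.8, 13.8 and 24.8 FPKM in BAT, with its highest level in mouse 5, against 0.387, 0.374, 0.307, 0.427 and 0.308 FPKM in muscle (log2 fold change 4.76 ± 0.29 (SE), adjusted p = 1.35e-05). The median of the list is the same with genes at 0 set to these bounds. It did depend on the handling of low values: 2.60 with 1 FPKM added in place of 0.1, 4.94 with edgeR and 4.87 with DESeq2.

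Regulators of the thermogenic programme differed less. *Ebf2*, a transcription factor that marks brown preadipocytes, had 8.72 to 13.7 FPKM in BAT, against 0.886 to 1.32 FPKM in muscle (log2 fold change 3.30 ± 0.16 (SE), adjusted p = 4.56e-06). *Prdm16*, a co-regulator of brown fat fate, had 4.11 to 6.43 FPKM in BAT, against 0.835 to 1.18 FPKM in muscle (log2 fold change 2.28 ± 0.15 (SE), adjusted p = 1.88e-05). *Ppargc1b*, coactivator PGC-1β, was also higher (log2 fold change 2.32 ± 0.21 (SE), adjusted p = 7.24e-05). *Ppargc1a*, coactivator PGC-1α of mitochondrial biogenesis, did not pass: it had 6.37, 5.501, 9.67, 10.95 and 10.96 FPKM in BAT, against 7.78, 7.04, 6.86, 6.16 and 7.29 FPKM in muscle, and the groups overlapped (log2 fold change 0.25 ± 0.20 (SE), adjusted p = 0.276). Under rescaling to a common total it passed as higher in BAT, as did *Pdk4* and *Acot2*, which left 31 genes of the list higher and 0 lower. The other 3 that did not pass were *Pdk4*, which inhibits pyruvate dehydrogenase (log2 fold change 0.55 ± 0.31 (SE), adjusted p = 0.154), *Acot2*, a mitochondrial thioesterase (log2 fold change 0.27), and *Fabp3*, the fatty acid binding protein of muscle and heart. *Fabp3* had 1405, 1054, 1406, 1648 and 1543 FPKM in BAT, against 2623, 2493, 1544, 1443 and 904 FPKM in muscle, where mouse 1 was the highest and mouse 5 the lowest. *Mtus1* was the member lower in BAT (log2 fold change -0.43), a call that rescaling ended (-0.041, adjusted p = 0.728). *Zic1* was slightly higher (log2 fold change 0.60 ± 0.19 (SE), adjusted p = 0.0253), but its groups overlapped, at 1.07 to 2.26 FPKM in BAT and 0.396 to 1.79 FPKM in muscle. It did not pass without the mouse as a block (adjusted p = 0.137), nor without mouse 1, 2 or 5 (adjusted p = 0.0602, 0.0617 and 0.0722).

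Of 29 adipocyte genes, 27 were higher in BAT and 2 lower, with a median of 3.42. *Plin1*, which coats lipid droplets, averaged 429 ± 25.8 FPKM in BAT and 4.27 ± 3.03 FPKM in skeletal muscle (log2 fold change 6.83 ± 0.27 (SE), adjusted p = 2.26e-06). *Fabp4*, the adipocyte fatty acid binding protein, averaged 1712 ± 176 FPKM in BAT and 64.6 ± 9.56 FPKM in skeletal muscle. *Pparg* and *Cebpa*, the transcription factors that drive adipocyte differentiation, were both higher: *Pparg* averaged 102 ± 11.6 FPKM in BAT and 1.75 ± 0.461 FPKM in skeletal muscle and *Cebpa* 366 ± 32.9 FPKM in BAT and 5.56 ± 2.52 FPKM in skeletal muscle. *Pnpla2*, adipose triglyceride lipase, was clearly expressed in both tissues, at 903 to 1031 FPKM in BAT, against 84.3 to 166 FPKM in muscle. *Lep*, the satiety hormone leptin, had 104, 123, 74.3, 73.7 and 70.8 FPKM in BAT, against 8.95, 5.46, 5.13, 4.93 and 14.1 FPKM in muscle (log2 fold change 3.60 ± 0.29 (SE), adjusted p = 4.12e-05), highest in muscle mouse 5 like *Adipoq*. The part of fat RNA within the muscle libraries in these differences was not tested. The members lower in BAT were *Car3*, carbonic anhydrase 3, with 718 to 956 FPKM in BAT and 1046 to 1458 FPKM in muscle, and *Slc2a4*, the insulin-responsive glucose transporter GLUT4, with 116 to 161 FPKM in BAT and 217 to 231 FPKM in muscle (log2 fold change -0.72 ± 0.09 (SE), adjusted p = 0.000327). Both are abundant in muscle fibres as well as in fat, and *Car3* did not pass under rescaling to a common total.

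Of 16 fatty acid synthesis genes, 15 were higher in BAT and 1 lower, with a median of 4.13. *Fasn*, fatty acid synthase, had 1270.1, 1200.3, 1579.6, 914.6 and 1763.5 FPKM in BAT, against 2.81, 2.04, 2.48, 3.05 and 5.55 FPKM in muscle (log2 fold change 8.72 ± 0.18 (SE), adjusted p = 4.48e-07). *Scd1*, the stearoyl-CoA desaturase, had 6214, 6081, 5371, 4203 and 6059.5 FPKM in BAT, against 24.5, 13.5, 10.2, 21.1 and 49.4 FPKM in muscle (log2 fold change 8.08 ± 0.31 (SE), adjusted p = 2.08e-06), and was among the 10 most abundant transcripts of BAT. Muscle mouse 5 was again the highest muscle library for both. The citrate carrier *Slc25a1* that exports citrate from mitochondria averaged 226 ± 53.0 FPKM in BAT and 3.17 ± 1.15 FPKM in skeletal muscle, and *Acly*, which cleaves the exported citrate, averaged 429.8 ± 136 FPKM in BAT and 5.24 ± 0.379 FPKM in skeletal muscle. *Acaca*, acetyl-CoA carboxylase 1, averaged 102 ± 20.9 FPKM in BAT and 1.52 ± 0.280 FPKM in skeletal muscle, and *Elovl6*, which elongates palmitate, 68.3 ± 15.2 FPKM in BAT and 0.223 ± 0.0316 FPKM in skeletal muscle. The whole route from citrate to oleate was thus higher in BAT at each of these steps. *Me1*, cytosolic malic enzyme and a source of NADPH, was the exception, with 92.5, 95.8, 109.5, 64.0 and 136 FPKM in BAT, against 131, 124, 156, 155 and 180.5 FPKM in muscle (log2 fold change -0.61 ± 0.14 (SE), adjusted p = 0.00706), a call that rescaling to a common total ended. *Pck1*, which feeds glycerol synthesis in fat, averaged 979 ± 54.6 FPKM in BAT and 1.44 ± 0.943 FPKM in skeletal muscle and was among the 10 highest fitted log2 fold changes, a measure that the added 0.1 FPKM limits for genes at 0 in muscle. Others among those 10 were *Kng2* (a kininogen), *Aspg* (asparaginase) and *Apoc1* (an apolipoprotein), with log2 fold changes of 8.90, 8.29 and 8.28.

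**Figure D2:**
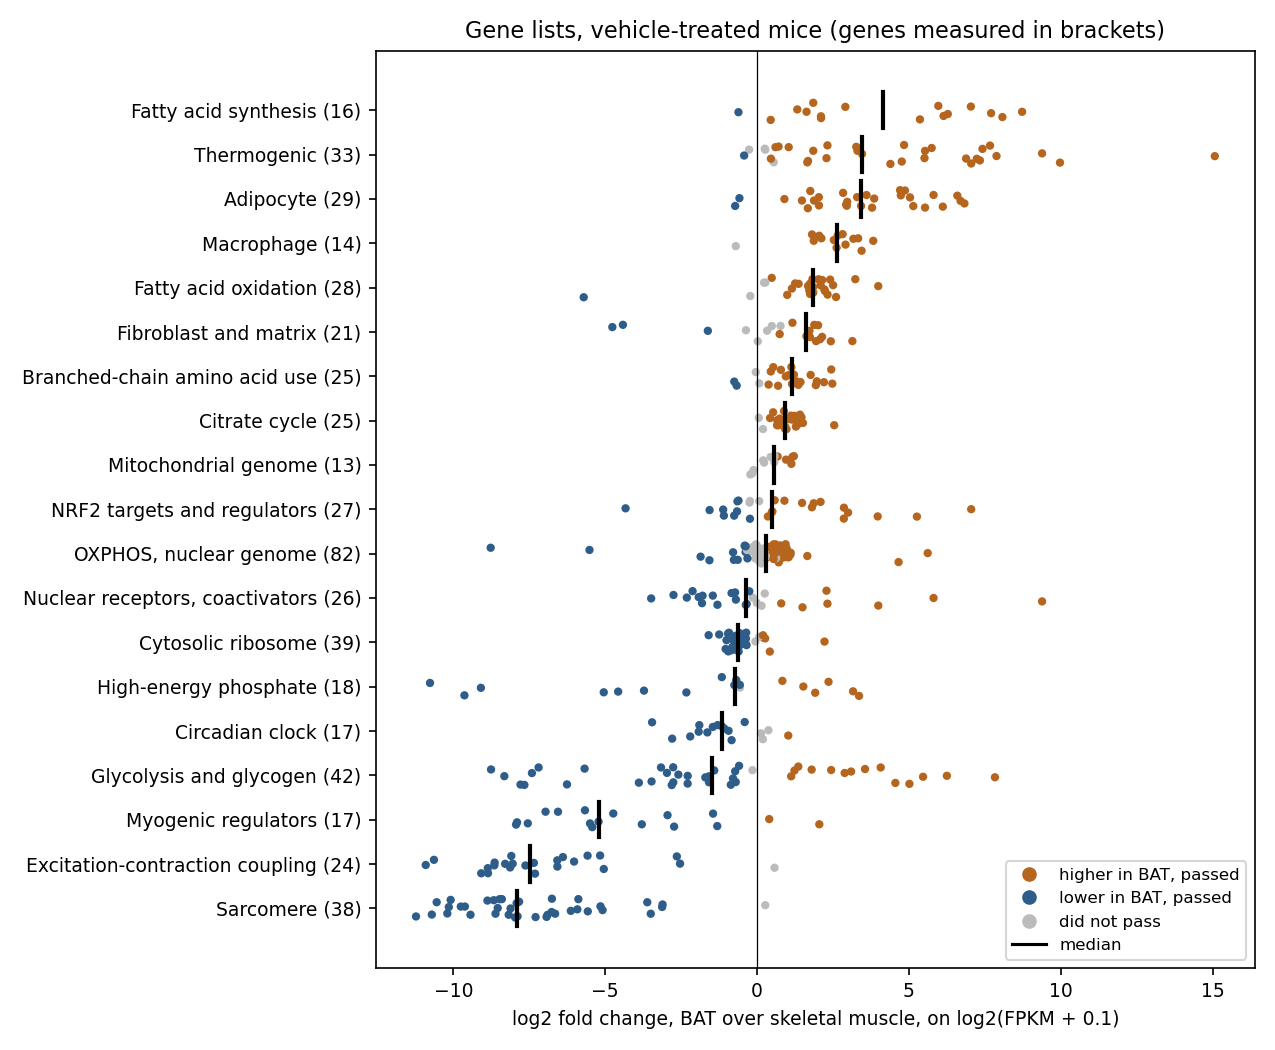
Log2 fold change, BAT over skeletal muscle, of each measured gene in 19 lists, with the number measured in brackets, brown for genes that passed higher in BAT, blue for genes that passed lower and grey for the rest, and a black line at the median. Fatty acid synthesis (median 4.13) and thermogenic genes (3.45) lie at one end, sarcomere (-7.90) and excitation-contraction genes (-7.49) at the other, while nuclear OXPHOS genes centre near 0 with a few far members.

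Contractile genes were far lower in BAT. The 10 lowest fitted log2 fold changes, among genes with at least 10 FPKM in muscle and no overlap, belonged to contractile, calcium-handling or creatine kinase genes: *Myh4*, *Pvalb*, *Ckm*, *Tnnt3*, *Atp2a1*, *Actn3*, *Tnni2*, *Mybpc2*, *Acta1* and *Myoz1*, with log2 fold changes of -11.23 to -9.76. The 0.1 FPKM added before the logarithm limits the fitted value of genes at 0 in BAT, so *Mettl11b*, a gene chosen after its values were seen, is not among them although it was at least 1291-fold lower. Of 38 sarcomere genes measured, 0 were higher in BAT and 37 lower, with a median of -7.90, and of 24 excitation-contraction genes, 0 were higher and 23 lower, with a median of -7.49. The medians were -8.72 and -8.20 without mouse 3, -7.32 and -7.23 without mouse 2, -7.34 and -7.09 without mouse 4, and -10.08 and -9.30 when only BAT mice 2 and 4 were set against the 5 muscle libraries, an alternative chosen after the data were seen. With 1 FPKM added in place of 0.1, the medians were -6.74 and -6.08. *Myh4*, the fastest myosin heavy chain (IIB), had 27.4, 0, 378, 0.0267 and 75.5 FPKM in BAT, against 14009.7, 12817, 15096, 17228 and 17176 FPKM in muscle. *Atp2a1*, the fast-fibre SERCA1 calcium pump, had 43.1, 0.0728, 513, 0.0462 and 100.2 FPKM in BAT, against 13024, 15306, 14817, 14753 and 13515 FPKM in muscle. *Pvalb*, the calcium buffer parvalbumin, had 37.3, 0, 449.9, 0.0515 and 87.7 FPKM in BAT, against 11227, 15899, 13567, 15726 and 15397.5 FPKM in muscle. For each of them BAT mice 3, 5 and 1 followed in that order, with mice 2 and 4 at or near 0. The giant scaffold *Ttn* (titin) had 0.00217 to 6.25 FPKM in BAT, against 126 to 158.5 FPKM in muscle, and the calcium release channel *Ryr1* 0.0203 to 11.1 FPKM in BAT, against 286 to 350.1 FPKM in muscle. Counts of myosin genes *Myh1*, *Myh2* and *Myh4* are uncertain where reads fall in sequence these neighbours share.

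Among the contractile genes, 2 did not pass, and neither is confined to striated muscle. *Atp2a2*, the SERCA2 pump of slow fibres and of most other cells, had 54.6, 46.8, 93.6, 52.2 and 65.5 FPKM in BAT, against 129, 10.5, 63.8, 37.1 and 34.3 FPKM in muscle (log2 fold change 0.57 ± 0.43 (SE), adjusted p = 0.262). *Tpm3*, a tropomyosin of slow fibres and of the general cytoskeleton, had 17.7, 20.7, 34.2, 18.8 and 17.4 FPKM in BAT, against 40.5, 10.5, 24.8, 11.7 and 13.1 FPKM in muscle (log2 fold change 0.27 ± 0.30 (SE), adjusted p = 0.444). The muscle libraries themselves ranged widely in both, with mouse 1 the highest, and without mouse 1 both passed as higher in BAT (*Atp2a2* 1.03, adjusted p = 0.025, and *Tpm3* 0.63, adjusted p = 0.00417). Of the calcium pump transcripts, *Atp2a1* made up 99.0 to 99.9% of *Atp2a1* + *Atp2a2* in muscle, while in BAT it made up 0.155% and 0.0885% in mice 2 and 4, and 84.6% in mouse 3.

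Slow-fibre transcripts behaved differently from fast-fibre transcripts between individual libraries. A set of 10 fast-fibre genes summed, in the BAT of mice 1 to 5, to 0.249%, 0.00173%, 3.09%, 0.00187% and 0.578% of the mean muscle sum. A set of 10 slow-fibre genes summed in the same libraries to 2.72%, 1.18%, 99.9%, 1.20% and 8.75% of the mean muscle sum. In BAT mice 2 and 4 most of this sum was *Casq2*, a calsequestrin, at 2.57 of 3.62 FPKM and 2.53 of 3.69 FPKM. The median slow-fibre gene stood at 2.41%, 0.249%, 125%, 0.464% and 13.6% of its muscle mean in BAT mice 1 to 5. The BAT of mouse 3 thus held as much slow-fibre transcript as the average muscle library, beside 3.09% of its fast-fibre transcript. *Myh7*, the slow myosin heavy chain, had 0.562, 0, 39.5, 0.00622 and 3.25 FPKM in BAT, against 65.8, 0.815, 31.8, 8.32 and 10.6 FPKM in muscle, and the groups overlapped (log2 fold change -3.50 ± 1.06 (SE), adjusted p = 0.0211). It did not pass without the mouse as a block (adjusted p = 0.0805) or without mouse 1 or 4 (adjusted p = 0.0653 and 0.0664). *Tnnt1*, slow troponin T, had 1.19, 0.0861, 59.7, 0.365 and 5.74 FPKM in BAT, against 102, 7.50, 53.5, 13.4 and 19.2 FPKM in muscle (log2 fold change -3.62 ± 0.97 (SE), adjusted p = 0.0126). *Sln*, sarcolipin, which uncouples SERCA pumps, had 0.0525, 0, 7.84, 0 and 0.415 FPKM in BAT, against 3.83, 1.58, 2.10, 1.76 and 2.10 FPKM in muscle, so its highest level of all 10 libraries was in the BAT of mouse 3 (log2 fold change -2.64 ± 0.97 (SE), adjusted p = 0.042), and it did not pass without mouse 1, 2, 4 or 5 (adjusted p = 0.0765 to 0.129). The muscle libraries also varied in slow-fibre content, with sums of 245%, 37.9%, 109%, 59.1% and 48.3% of their mean in mice 1 to 5, while their fast-fibre sums stayed at 89.1 to 110.0%. In SFN mice, the BAT of mouse 7 also held far more of the slow than of the fast set, at 2.59% for the fast set and 79.1% for the slow set.

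**Figure D3:**
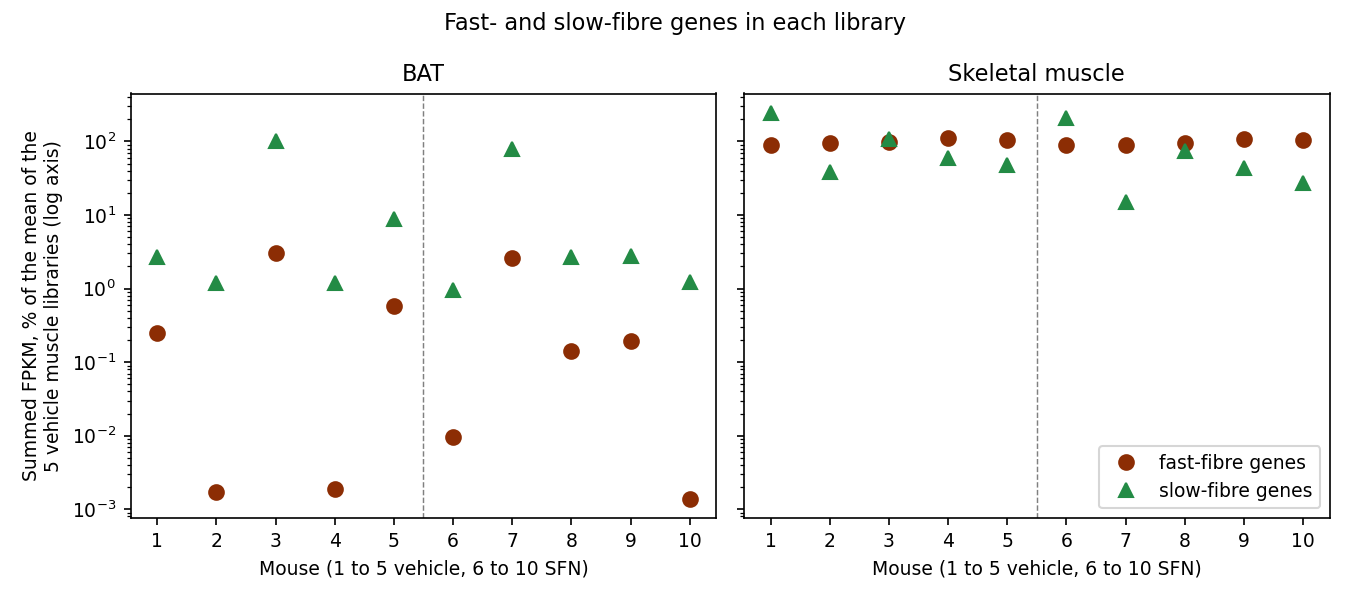
Summed FPKM of 10 fast-fibre genes (circles) and 10 slow-fibre genes (triangles) in each BAT library (left) and muscle library (right) of mice 1 to 10, as a percent of the mean of the 5 vehicle muscle libraries, on a log axis. BAT libraries of mice 3 and 7 reach 99.9% and 79.1% for slow-fibre genes at 3.09% and 2.59% for fast-fibre genes.

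Regulators of the muscle lineage were mostly lower in BAT, with 2 of 17 measured genes higher, 15 lower and a median of -5.22. The median was -2.75 with 1 FPKM added in place of 0.1. *Myod1*, the founding myogenic factor, had 0.0372, 0, 1.05, 0 and 0.0735 FPKM in BAT, against 16.2, 18.7, 17.3, 20.7 and 18.1 FPKM in muscle (log2 fold change -6.55 ± 0.55 (SE), adjusted p = 5.33e-05). *Myf5*, which is active in the shared embryonic precursors of muscle and interscapular brown fat, was low in both, with 0.0665, 0, 0.227, 0 and 0 FPKM in BAT and 1.17, 0.570, 1.07, 1.40 and 0.902 FPKM in muscle (log2 fold change -2.95 ± 0.36 (SE), adjusted p = 0.000337). *Mstn*, myostatin, a brake on muscle growth, had 0 to 0.799 FPKM in BAT, against 18.7 to 61.2 FPKM in muscle. Those 3 had their highest BAT level in mouse 3. The homeobox genes *Meox1* and *Meox2*, which act in somites, were the members higher in BAT. *Meox1* had 5.67 to 6.37 FPKM in BAT, against 0.964 to 1.70 FPKM in muscle (log2 fold change 2.05 ± 0.12 (SE), adjusted p = 9.42e-06), and *Meox2* 7.81 to 12.4 FPKM in BAT, against 5.498 to 9.35 FPKM in muscle, with overlap (log2 fold change 0.40 ± 0.11 (SE), adjusted p = 0.0133, and adjusted p = 0.0625 with BAT mice 2 and 4 alone).

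The measured Hox genes, which record position along the body axis, split by their place in the cluster. They were collected after the values had been seen, so their counts are a description. Of 16 measured genes with paralogue numbers 1 to 8 (anterior and thoracic positions), 11 were higher in BAT, 3 lower and 2 did not pass, with a median of 0.99. Of 9 with paralogue numbers 9 to 13 (posterior positions), all 9 were lower in BAT, with a median of -5.53, or -7.79 with the 5 that were at 0 in every BAT library set to their bound. Those 5, and *Hoxa9*, *Hoxc9* and *Hoxc10* (BAT means 0.071, 0.016 and 0.0066 FPKM), passed the filter of 0.5 FPKM only through their muscle level. The filter thus fixed their direction, and Hox genes with a mean below it over the 10 libraries were not counted. *Hoxc10* had 0, 0.0332, 0, 0 and 0 FPKM in BAT, against 61.8, 67.2, 73.1, 74.6 and 72.7 FPKM in muscle (log2 fold change -9.36 ± 0.11 (SE), adjusted p = 1.89e-07). *Hoxa10* was at 0 in all BAT libraries and had 10.0, 12.8, 10.8, 12.5 and 12.7 FPKM in muscle, at least 1005-fold lower in BAT, and *Hoxc11* was at 0 in BAT and at 11.1 to 13.3 FPKM in muscle, at least 630-fold lower. These genes were at 0 in the BAT of mouse 3 as well, the library with the most muscle transcript. *Hoxa5* stood on the other side, with 13.8 to 15.7 FPKM in BAT, against 1.86 to 3.48 FPKM in muscle (log2 fold change 2.45 ± 0.13 (SE), adjusted p = 6.10e-06), and *Hoxc5* had 9.92 to 12.3 FPKM in BAT, against 0.929 to 1.75 FPKM in muscle. Within muscle, the library of mouse 2 was low for the measured Hoxd genes: *Hoxd9* had 15.9, 1.62, 19.2, 15.0 and 20.1 FPKM and *Hoxd8* 28.8, 3.89, 31.9, 22.2 and 32.8 FPKM in mice 1 to 5.

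**Figure D4:**
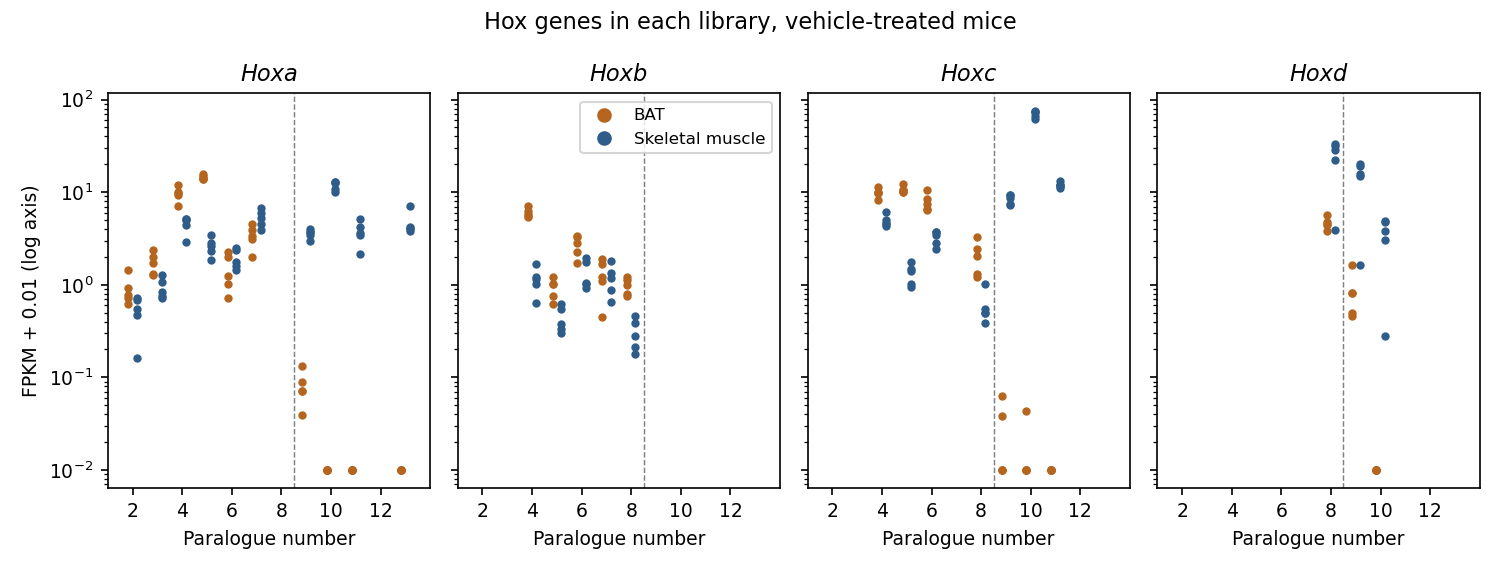
FPKM + 0.01 on a log axis of each measured Hox gene in each BAT (brown) and muscle (blue) library, by paralogue number within the 4 clusters, with a dashed line between numbers 8 and 9. Right of the line BAT libraries lie below the muscle libraries, at 0 for 5 genes, apart from *Hoxd9*, where BAT mouse 3 (1.61 FPKM) comes close to muscle mouse 2 (1.62 FPKM).

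Nuclear genes of oxidative phosphorylation (OXPHOS) differed little as a group and widely in a few members. Of 82 nuclear OXPHOS genes, 41 were higher in BAT, 12 lower and 29 did not pass, with a median of 0.31, and under rescaling to a common total 65 were higher and 6 lower. The summed level was 28289 to 38015 FPKM in BAT and 19888 to 28157 FPKM in muscle. Of 13 protein-coding genes of the mitochondrial genome, 5 were higher, none lower and 8 did not pass. Without mouse 3, 4 or 5 the count was 3, and under rescaling to a common total it was 10. *mt-Co1*, a catalytic subunit of cytochrome c oxidase and the most abundant transcript of both tissues, had 52474 to 57648 FPKM in BAT, against 35867 to 57839 FPKM in muscle (log2 fold change 0.23 ± 0.52 (SE), adjusted p = 0.698, and 0.62 with adjusted p = 0.0478 under rescaling). *mt-Co2* had 635 to 885 FPKM in BAT, against 279 to 362 FPKM in muscle (log2 fold change 1.21 ± 0.13 (SE), adjusted p = 0.000149). Levels of these genes are uncertain where nuclear copies take reads. Core subunits encoded in the nucleus were moderately higher: *Ndufv1* of complex I had 406 to 522 FPKM in BAT, against 197 to 292 FPKM in muscle (log2 fold change 1.00 ± 0.14 (SE), adjusted p = 0.000537), and *Sdha* of complex II had 670.1 to 842 FPKM in BAT, against 319 to 481 FPKM in muscle (log2 fold change 0.97 ± 0.14 (SE), adjusted p = 0.00073).

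Cytochrome c oxidase, complex IV, has subunits with a heart and muscle isoform and a general isoform, and the tissues used them differently. *Cox6a1*, the general subunit 6A, had 2450.2, 1864, 2092, 2482 and 2440.3 FPKM in BAT, against 50.6, 55.3, 38.1, 44.9 and 42.1 FPKM in muscle (log2 fold change 5.62 ± 0.13 (SE), adjusted p = 6.03e-07). *Cox6a2*, the muscle isoform, had 6.11, 0.186, 102, 0.158 and 17.3 FPKM in BAT, against 1604, 2031, 1631, 1774 and 1376 FPKM in muscle (log2 fold change -8.77 ± 1.39 (SE), adjusted p = 0.00117). The muscle isoform thus made up 0.249, 0.00998, 4.65, 0.00635 and 0.704% of the pair in BAT and 96.9, 97.3, 97.7, 97.5 and 97.0% in muscle, and in BAT its order over mice was that of the muscle transcripts. Summed over the pair, subunit 6A stood at 2291 FPKM in BAT and 1729 FPKM in muscle. Subunit 8 differed in another way, since *Cox8b*, the muscle and brown fat isoform, was abundant in both tissues, with 2559.8 to 3847 FPKM in BAT, against 990.2 to 1230.1 FPKM in muscle, and made up 59.9 to 64.7% of the pair in BAT and 91.7 to 93.9% in muscle. *Cox8a*, the general isoform, had 1717 to 2213 FPKM in BAT, against 74.1 to 89.3 FPKM in muscle (log2 fold change 4.66 ± 0.09 (SE), adjusted p = 4.47e-07). For subunit 7A the shares overlapped, with *Cox7a1* at 73.2 to 77.1% of the pair in BAT and 71.5 to 78.5% in muscle. *Cox6a1* and *Cox8a* have processed pseudogenes, so the exact levels are uncertain.

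Subunits of ATP synthase differed in both directions. Of the catalytic part, *Atp5b* (β subunit) had 2121.5, 1865, 2115, 2063 and 2312 FPKM in BAT, against 1145.6, 1366, 1015, 1070.2 and 910.1 FPKM in muscle (log2 fold change 0.94 ± 0.16 (SE), adjusted p = 0.00149), *Atp5a1* (α subunit) did not pass (log2 fold change 0.07 ± 0.15 (SE), adjusted p = 0.667, and 0.46 with adjusted p = 0.00501 under rescaling) and *Atp5c1* (γ subunit) was lower (log2 fold change -0.76). All 3 genes of the c subunit, which forms the proton-driven ring of the enzyme, were lower. *Atp5g1* had 2.03, 2.63, 8.11, 2.16 and 3.01 FPKM in BAT, against 152.5, 189, 133.5, 140.2 and 126 FPKM in muscle (log2 fold change -5.52 ± 0.32 (SE), adjusted p = 1.05e-05). *Atp5g2* had 64.9 to 82.2 FPKM in BAT, against 123 to 145 FPKM in muscle (log2 fold change -0.79 ± 0.07 (SE), adjusted p = 7.70e-05), and *Atp5g3* had 89.8 to 119 FPKM in BAT, against 259.5 to 415 FPKM in muscle (log2 fold change -1.57 ± 0.15 (SE), adjusted p = 0.000104). The c-subunit genes encode the same mature protein, and together they reached 9.54, 8.43, 9.35, 9.09 and 8.84% of the *Atp5b* level in BAT, against 56.8, 53.6, 55.7, 54.5 and 55.9% in muscle, a ratio within each library that no scaling changes. The coupling factor *Atp5j* was lower too (log2 fold change -1.86 ± 0.12 (SE), adjusted p = 1.92e-05). *Atpif1*, the inhibitor of ATP synthase, was slightly lower (log2 fold change -0.32 ± 0.10 (SE), adjusted p = 0.026), a direction that turned to 0.07 with rescaling to a common total and to 0.04 with BAT mice 2 and 4 alone, and the call was lost without the mouse as a block (adjusted p = 0.119) or without mouse 1, 3 or 5 (adjusted p = 0.076 to 0.0802).

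The citrate cycle was nearly uniform. Of 25 genes, 23 were higher in BAT, 0 were lower and 2 did not pass, with a median of 0.93. *Cs*, citrate synthase, averaged 466 ± 36.0 FPKM in BAT and 247 ± 36.1 FPKM in skeletal muscle (log2 fold change 0.92 ± 0.13 (SE), adjusted p = 0.000537). The largest difference was in *Pcx*, pyruvate carboxylase, which refills the cycle with oxaloacetate and had 180.1 to 223 FPKM in BAT, against 21.5 to 46.6 FPKM in muscle. *Mdh2*, malate dehydrogenase, did not pass (log2 fold change 0.19 ± 0.15 (SE), adjusted p = 0.264), but did without mouse 2 (0.33, adjusted p = 0.0314) and under rescaling to a common total.

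Fatty acid oxidation was higher in BAT over most of its steps, with 24 of 28 genes higher, 1 lower, 3 that did not pass and a median of 1.84. *Acaa2*, the thiolase that ends each mitochondrial cycle, had 2107.5, 1706, 1890.5, 1843.5 and 2156 FPKM in BAT, against 272.5, 294, 197, 176 and 132 FPKM in muscle (log2 fold change 3.23 ± 0.21 (SE), adjusted p = 1.70e-05). *Acadl*, long-chain acyl-CoA dehydrogenase, averaged 1516 ± 151 FPKM in BAT and 331 ± 86.8 FPKM in skeletal muscle, and *Cpt2*, of the inner membrane carnitine system, averaged 276 ± 33.8 FPKM in BAT and 60.7 ± 16.6 FPKM in skeletal muscle. In muscle, mouse 5 had the lowest level for all 3. The outer membrane step, carnitine palmitoyltransferase 1, had low counted levels in both tissues. *Cpt1b*, the muscle and brown fat isoform, had 7.34 to 11.8 FPKM in BAT, against 2.10 to 3.70 FPKM in muscle. Its share of *Cpt1a* + *Cpt1b* was 42.3 to 61.7% in BAT and 38.5 to 54.8% in muscle, so the shares overlapped. These levels and shares are uncertain, because the counting tool is not given and loss of reads in counting was not tested. The acyl-CoA synthetase *Acsl1* was higher in BAT (log2 fold change 2.04, adjusted p = 8.93e-05). Within the pair *Acsl5* and *Acsl6*, of lower level, the exchange was fuller than for carnitine palmitoyltransferase 1. *Acsl5* had 20.7 to 32.6 FPKM in BAT, against 1.48 to 1.57 FPKM in muscle (log2 fold change 3.99 ± 0.10 (SE), adjusted p = 7.35e-07), whereas *Acsl6* had 0 to 0.136 FPKM in BAT, against 6.59 to 7.88 FPKM in muscle (log2 fold change -5.71 ± 0.20 (SE), adjusted p = 1.50e-06).

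Glycolysis and glycogen genes went both ways, with 14 of 42 higher in BAT, 27 lower and a median of -1.50. Summed levels were 5011 to 7013 FPKM in BAT and 32076 to 38474 FPKM in muscle. Most of the split ran along isoform pairs. *Pygm*, muscle glycogen phosphorylase, had 12.6, 1.57, 142.5, 1.41 and 26.0 FPKM in BAT, against 3958, 3955, 4941, 4995 and 4773 FPKM in muscle (log2 fold change -8.76 ± 0.97 (SE), adjusted p = 0.000198). *Pygl*, the liver isoform, had 101, 88.0, 117, 80.0 and 134.5 FPKM in BAT, against 0.340, 0.301, 0.259, 0.410 and 0.467 FPKM in muscle (log2 fold change 7.83 ± 0.14 (SE), adjusted p = 3.76e-07). *Pygm* was 99.99% of the pair in every muscle library and 1.76% and 1.74% of it in BAT mice 2 and 4, but 54.9% in BAT mouse 3. The same exchange held for phosphofructokinase, where *Pfkm* had 34.3, 27.8, 93.7, 26.7 and 42.1 FPKM in BAT, against 1855.5 to 2248 FPKM in muscle (log2 fold change -5.68 ± 0.28 (SE), adjusted p = 5.30e-06) and *Pfkl* had 116.4 to 170.5 FPKM in BAT, against 2.54 to 3.21 FPKM in muscle (log2 fold change 5.46 ± 0.09 (SE), adjusted p = 3.43e-07). Unlike *Pygm*, *Pfkm* was still at 27.8 and 26.7 FPKM in BAT mice 2 and 4, the libraries nearly free of muscle transcript. Enolase followed with *Eno3* at 5.88 to 169 FPKM in BAT, against 4704 to 5600.3 FPKM in muscle, and *Eno1* at 520.5 to 783 FPKM in BAT, against 25.5 to 27.2 FPKM in muscle. Glycogen synthase was shared, since *Gys1* made up 62.5 to 71.5% of *Gys1* + *Gys2* in BAT and 99.7 to 99.9% in muscle.

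The ends of the pathway differed as well. *Hk2*, the insulin-responsive hexokinase, did not pass (log2 fold change -0.15 ± 0.11 (SE), adjusted p = 0.237), while *Hk1* had 14.3 to 15.9 FPKM in BAT, against 1.45 to 1.95 FPKM in muscle (log2 fold change 3.09 ± 0.09 (SE), adjusted p = 9.79e-07). With rescaling to a common total *Hk2* passed as higher (0.24, adjusted p = 0.0251), and with BAT mice 2 and 4 alone at -0.40 (adjusted p = 0.00969). *Ldha*, the lactate dehydrogenase subunit of fast muscle, had 378 to 544 FPKM in BAT, against 1361.5 to 1549 FPKM in muscle, and *Ldhb* had 301 to 399.7 FPKM in BAT, against 87.9 to 283 FPKM in muscle. Monocarboxylate transporters were exchanged: *Slc16a1* (MCT1) had 99.3 to 128 FPKM in BAT, against 11.9 to 20.4 FPKM in muscle (log2 fold change 2.88 ± 0.14 (SE), adjusted p = 4.98e-06), and *Slc16a3* (MCT4) had 0.357 to 2.07 FPKM in BAT, against 101 to 122 FPKM in muscle (log2 fold change -7.19 ± 0.33 (SE), adjusted p = 3.81e-06).

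**Figure D5:**
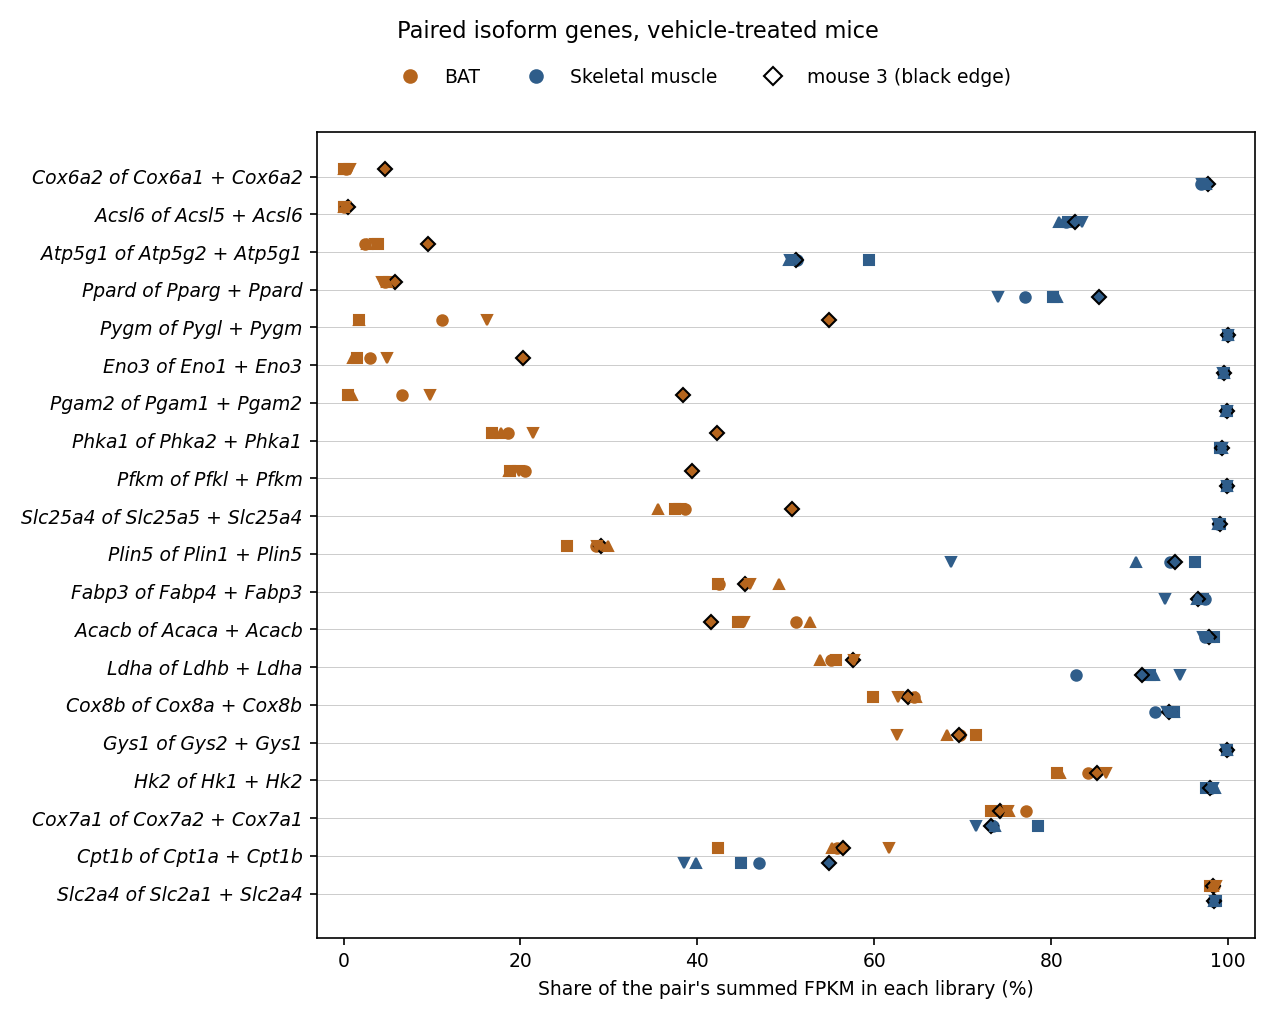
Share of each named gene in the summed FPKM of its pair (percent) in each library, for 20 pairs, BAT above (brown) and skeletal muscle below (blue) on each line, with a black edge for mouse 3. *Cox6a2* makes up at most 4.65% of its pair in BAT and at least 96.9% in muscle, *Cox7a1*, *Cpt1b* and *Slc2a4* overlap, and BAT mouse 3 lies to the right of the other BAT libraries for *Pygm* (54.9%).

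High-energy phosphate genes were lower in BAT for 11 of 18, higher for 6, with a median of -0.72. *Ckm* had 17.8, 0, 236, 0 and 45.6 FPKM in BAT, against 7239.8, 7324, 8072, 8857 and 8126.5 FPKM in muscle (log2 fold change -10.77 ± 1.85 (SE), adjusted p = 0.00172), and *Ckmt2*, its mitochondrial partner in the creatine shuttle, had 0 to 59.9 FPKM in BAT, against 761 to 1433 FPKM in muscle. *Ckb*, the brain-type creatine kinase that is also found in brown fat, went the other way at a low level, with 15.9, 19.2, 13.3, 14.4 and 13.4 FPKM in BAT, against 5.11, 3.76, 3.54, 4.50 and 3.12 FPKM in muscle (log2 fold change 1.91 ± 0.12 (SE), adjusted p = 1.20e-05). *Ak1*, an adenylate kinase, had 28.7 to 67.9 FPKM in BAT, against 849 to 973 FPKM in muscle.

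Carriers of the inner mitochondrial membrane were higher in BAT for 9 of 17 and lower for 6. The adenine nucleotide translocators, which exchange ADP for ATP, were exchanged in part. *Slc25a4* (ANT1) had 191, 150.4, 286, 167 and 202 FPKM in BAT, against 2597, 2953, 2469, 2565 and 2303 FPKM in muscle (log2 fold change -3.72 ± 0.18 (SE), adjusted p = 4.66e-06), and *Slc25a5* (ANT2) had 303, 251, 279, 302 and 330.2 FPKM in BAT, against 31.4, 29.3, 24.4, 29.3 and 28.0 FPKM in muscle (log2 fold change 3.36 ± 0.08 (SE), adjusted p = 6.69e-07). Their sum was 492 FPKM in BAT and 2606 FPKM in muscle. The UCP1 homologues differed from *Ucp1*: *Ucp2* had 11.8 to 17.9 FPKM in BAT, against 2.22 to 2.60 FPKM in muscle (log2 fold change 2.48 ± 0.12 (SE), adjusted p = 4.57e-06), and *Ucp3* had 66.6, 38.8, 43.2, 32.2 and 42.6 FPKM in BAT, against 73.2, 85.6, 68.5, 49.4 and 56.2 FPKM in muscle (log2 fold change -0.59 ± 0.14 (SE), adjusted p = 0.00746), with overlap and no call under rescaling to a common total. *Slc25a12*, a glutamate-aspartate carrier, was far lower, with 0.817 to 5.71 FPKM in BAT, against 101 to 135 FPKM in muscle.

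Branched-chain amino acid oxidation, a fuel route of both tissues, was higher in BAT for 21 of 25 genes and lower for 2, with a median of 1.15. *Bcat2*, the transaminase that starts the route, did not pass and was closely matched, with 27.8, 26.4, 26.4, 26.4 and 27.4 FPKM in BAT, against 25.3, 26.2, 27.0, 25.6 and 24.0 FPKM in muscle (log2 fold change 0.07 ± 0.06 (SE), adjusted p = 0.278, and 0.46 with adjusted p = 0.00152 under rescaling). The next step was higher, with *Bckdhb* of the branched-chain dehydrogenase at 91.9 to 115 FPKM in BAT, against 13.3 to 24.6 FPKM in muscle (log2 fold change 2.48 ± 0.16 (SE), adjusted p = 1.68e-05). *Bckdk*, the kinase that inactivates this dehydrogenase, was lower (log2 fold change -0.75 ± 0.11 (SE), adjusted p = 0.000753).

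Nuclear receptors and coactivators were mixed, with 7 of 26 higher, 15 lower, 4 that did not pass and a median of -0.36, which became 0.02, with 10 higher and 10 lower, under rescaling to a common total. The higher genes of this list include *Cidea* (log2 fold change 9.38), described above as a lipid droplet protein. *Ppara*, the receptor that drives fatty acid oxidation genes, had 32.2, 40.9, 46.8, 42.7 and 47.2 FPKM in BAT, against 4.18, 3.10, 2.09, 2.03 and 1.84 FPKM in muscle (log2 fold change 3.99 ± 0.25 (SE), adjusted p = 1.45e-05). *Esrra*, the oestrogen-related receptor of mitochondrial genes, was level, with 74.3 to 102 FPKM in BAT and 85.4 to 101 FPKM in muscle (log2 fold change -0.01 ± 0.10 (SE), adjusted p = 0.94), and 0.38 under rescaling (adjusted p = 0.0034). *Perm1*, a muscle regulator downstream of PGC-1 and ERR, was lower, with 15.0 to 25.4 FPKM in BAT, against 72.5 to 142 FPKM in muscle (log2 fold change -2.31 ± 0.23 (SE), adjusted p = 0.000119). *Nr4a1*, an immediate-early nuclear receptor, had 12.0, 17.5, 8.31, 4.98 and 4.97 FPKM in BAT, against 55.7, 99.2, 112, 118 and 111.5 FPKM in muscle. *Rxra*, the partner of PPARs, had 16.8 to 19.7 FPKM in BAT, against 57.5 to 69.4 FPKM in muscle, and *Tfam*, which packages mitochondrial DNA, was lower as well (log2 fold change -0.84 ± 0.09 (SE), adjusted p = 0.000131).

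NRF2, the transcription factor that SFN activates, and its pathway were described in these vehicle mice without SFN. Of 27 genes, 15 were higher in BAT, 9 lower and 3 did not pass, with a median of 0.48. *Nfe2l2*, which encodes NRF2, had 18.6, 18.9, 18.8, 19.1 and 19.1 FPKM in BAT, against 12.6, 12.3, 13.1, 14.5 and 14.1 FPKM in muscle (log2 fold change 0.50 ± 0.06 (SE), adjusted p = 0.000189). *Keap1*, the adaptor that sends NRF2 to degradation, had 13.7, 11.2, 12.3, 11.7 and 13.2 FPKM in BAT, against 24.0, 28.3, 26.8, 28.3 and 27.9 FPKM in muscle (log2 fold change -1.12 ± 0.09 (SE), adjusted p = 3.38e-05). *Nqo1*, a quinone reductase and classical NRF2 target, had 1.34, 0.611, 2.00, 0.655 and 1.32 FPKM in BAT, against 21.4, 16.5, 30.5, 28.4 and 24.4 FPKM in muscle (log2 fold change -4.33 ± 0.21 (SE), adjusted p = 4.96e-06). Pentose phosphate members of the list were higher. *Tkt*, transketolase, had 370.5, 316, 412.5, 293 and 457 FPKM in BAT, against 2.06, 2.00, 2.93, 3.18 and 3.42 FPKM in muscle (log2 fold change 7.05 ± 0.13 (SE), adjusted p = 4.15e-07), and *G6pdx*, which makes NADPH, had 56.9 to 81.1 FPKM in BAT, against 1.45 to 2.03 FPKM in muscle. *Hmox1*, heme oxygenase 1, had 10.3, 23.4, 15.0, 14.6 and 12.5 FPKM in BAT, highest in mouse 2, against 5.51, 3.56, 3.16, 4.26 and 4.40 FPKM in muscle (log2 fold change 1.80 ± 0.25 (SE), adjusted p = 0.00059). The glutathione synthesis genes *Gclc* and *Gclm* did not pass (log2 fold changes -0.23 and 0.07, with *Gclc* at -0.34 and adjusted p = 0.00834 without mouse 2, and *Gclm* at 0.45 and adjusted p = 0.0153 under rescaling), and the reductases *Gsr* and *Txnrd1* were lower (-0.76 and -0.66). Members of this list therefore did not move in one direction.

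Mitochondrial and other antioxidant genes were higher in BAT for 13 of 16 and lower for 1, *Glrx2* (log2 fold change -0.53), with a median of 0.98. Under rescaling to a common total 15 were higher and 0 lower, with *Glrx2* at -0.15 (adjusted p = 0.195). Cytosolic ribosomal protein genes were lower for 32 of 39 and higher for 5, with a median of -0.64. Under rescaling to a common total 22 were lower and 7 higher. *Rpl3*, which has a muscle-specific paralogue, stood on the other side, at 79.0 ± 3.91 FPKM in BAT and 16.9 ± 1.07 FPKM in skeletal muscle. Reads of ribosomal protein genes are uncertain because of their many pseudogenes.

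Other cell types also differed between the samples. Macrophage markers were higher in BAT for 13 of 14 and lower for 0, with summed levels of 346, 633, 339, 391 and 164 FPKM in BAT, against 60.1, 34.1, 46.9, 64.0 and 72.4 FPKM in muscle. *Lyz2*, lysozyme of myeloid cells, had 164, 274, 156, 165 and 63.8 FPKM in BAT, against 26.6, 16.8, 23.1, 27.3 and 29.5 FPKM in muscle (log2 fold change 2.62 ± 0.37 (SE), adjusted p = 0.000662). BAT mouse 2 was the highest and BAT mouse 5 the lowest of the BAT libraries for both. Fibroblast and matrix genes were higher for 13 of 21 and lower for 3, among them *Fmod* and *Tnmd*, genes of tendon (log2 fold changes -4.77 and -4.42). *Col3a1*, fibrillar collagen III, had 135, 248, 127, 202 and 76.3 FPKM in BAT, against 15.4, 12.4, 14.8, 21.9 and 19.6 FPKM in muscle (log2 fold change 3.14 ± 0.30 (SE), adjusted p = 9.77e-05), with the same order of BAT mice 2 and 5. Endothelial markers were higher for 11 of 13 and lower for 1, with summed levels of 330 to 389 FPKM in BAT and 131 to 246 FPKM in muscle, and *Pecam1* had 29.1 to 34.2 FPKM in BAT, against 14.0 to 22.3 FPKM in muscle. All 5 erythrocyte genes were higher, with sums of 906 to 1661 FPKM in BAT, against 151 to 445 FPKM in muscle, and mouse 4 the highest in both tissues. *Hbb-bs*, adult β-globin, which shares reads with near-identical neighbours, had 491, 586, 497, 853 and 493.6 FPKM in BAT, against 138, 156, 91.2, 227 and 85.2 FPKM in muscle. The part of these cell types in the differences of other genes was not tested.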

How the data were processed

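Total RNA was extracted with Trizol and libraries were made from poly A-enriched mRNA, and the sequencing was done by Novogene. The authors deposited gene-level FPKM values for all 60 libraries, and lists of differentially expressed genes with read counts, gene lengths and their own fold changes and p-values for SFN against vehicle, which were not used. The submitters' processing notes name the mouse builds mm10 and GRCm38. Aligner and counting tool: not given in the sources used here. The deposited count columns set the depth of each library for recovering reads from the deposited FPKM values. Against the same columns, 45030 known counts were compared and 0 differed, which is not an independent check. With gene lengths from the table, from the annotation or fitted, 29251 genes gave whole reads within a tolerance of 0.01 of a read. For 716 of them the length was fitted so that reads were whole. Relative to recovered reads, the depth used by the authors for FPKM was 0.866 to 0.968 in BAT and 0.594 to 0.634 in muscle, so their scaling was not by total reads. The 40 FPKM columns of other tissues were not used.

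Genes were tested with limma 3.58.1 in R 4.3.3, with an intensity trend, on log2(FPKM + 0.1), with the mouse as a block because both tissues came from the same animals by the mouse id in the labels, and Benjamini-Hochberg adjustment over all genes tested. Deviations of the paired libraries correlated at -0.039 to 0.071, and those of BAT and muscle libraries with different mouse numbers at -0.049 to 0.084. The values thus do not set the pairs apart, and the pairing rests on the labels. The test was checked on simulated data. Alternatives were edgeR 4.0.16 and DESeq2 1.42.0 on recovered reads, other scalings, pseudocounts and filters, no block, and each mouse left out. Members, gene lists and pairs were chosen with earlier results of these data known. Genes were named for being list or pair members, among the 10 largest differences in each direction, among the 10 most abundant, or among the 10 smallest interaction p-values. Some of the genes so chosen are not reported here. Floors of 3 reads cover counting error only.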

Additional observations from a re-analysis of the deposited data

Results flagged for a closer look

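The summed FPKM of each gene list was examined in each group of 5 libraries for a highest or lowest library far from the rest, and 7 of 60 groups (11.7%) had one, where chance gives about 1 in 20. In 3 of them it was the BAT of mouse 3: sarcomere genes summed to 4848 FPKM there and to 89.8 to 911 FPKM in the other BAT libraries, excitation-contraction genes to 1330 FPKM against 57.1 to 309.9 FPKM, and myogenic regulators to 80.8 FPKM against 55.4 to 62.7 FPKM. The nerve and Schwann cell list had a low sum in the BAT of mouse 2, at 185.9 FPKM against 221 to 234 FPKM in the other 4 BAT libraries. Most of this BAT sum was *S100b*, with 189, 146, 194, 182 and 195 FPKM in mice 1 to 5. The low sum in BAT mouse 2 thus follows 1 gene and does not describe nerve or Schwann cell genes as a set. In the muscle of mouse 3 the list was low as well, at 37.41 FPKM against 54.0 to 59.9 FPKM. Satellite cell genes were high in the muscle of mouse 2, at 47.47 FPKM against 40.4 to 42.4 FPKM. Cytosolic ribosomal protein genes were low in the muscle of mouse 1, at 7133 FPKM against 7494 to 7604 FPKM. The muscle of mouse 1 also had the highest slow-fibre sum, and that of mouse 2 the lowest.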

How the results depend on the processing

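Counts of genes higher and lower in BAT, and those of at least 2-fold differences, stayed within 1.5 times their value under all alternatives run. Without mouse 1, 2, 3, 4 or 5, limma called 5010 to 5260 genes higher and 4905 to 5068 lower, and without the replicate block 5483 higher and 5301 lower. Of 159 named genes, the fit without the block lost *Zic1*, *Myh7*, *Tnni1* and *Atpif1* and gained *Crat*, and 154 kept their call. In the interaction of tissue and treatment, 2 genes passed without the replicate block (*Bcat2* and *4933431C10Rik*), and leaving out each mouse gave 0 to 2 genes (2 without mouse 4, *Tkt* and *Me1*, and 1 each without mouse 5 and mouse 9). Without a filter 6929 genes were higher and 5907 lower of 27384, with rescaling to a common total 6916 and 3552, with edgeR 5528 and 4993 and with DESeq2 5048 and 5101. With rescaling, 4 of the 159 no longer passed (*Car3*, *Me1*, *Ucp3* and *Atpif1*), 9 others then did, as higher in BAT (*Ppargc1a*, *Pdk4*, *Atp5a1*, *mt-Co1*, *Mdh2*, *Gclm*, *Bcat2*, *Hk2* and *Esrra*), and the log2 fold change was 0.13 for *Fabp3*, 0.066 for *Atpif1*, 0.16 for *Crat*, 0.24 for *Hk2*, 0.15 for *Gclc* and 0.38 for *Esrra*, while the median of all genes moved to 0.42. *Esrra* was at 0.042 with TMM factors and 0.042 with edgeR, and at -0.074 to 0.094 over the fits that leave out a mouse, in which *Atp5a1* was at -0.031 to 0.18. With BAT mice 2 and 4 alone, chosen after the data were seen and fitted without the mouse, *Atp5a1* was at -0.046 and *Atpif1* at 0.041. Differences near 0 depend on the scaling, and the effect of depth on them was not tested.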

Other observations

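Secreted factors differed by tissue, with 14 of 23 measured genes higher in BAT and 6 lower. *Nrg4*, a neuregulin released by brown fat, had 15.1 to 19.6 FPKM in BAT, against 0.176 to 0.356 FPKM in muscle (log2 fold change 5.53). *Angptl4*, an inhibitor of lipoprotein lipase, had 134 to 181 FPKM in BAT, against 1.80 to 11.7 FPKM in muscle. *Gdf15*, a stress hormone, was low in both, at 0.960 to 3.18 FPKM in BAT, against 0 to 0.193 FPKM in muscle. On the muscle side, *Ostn*, musclin, had 0, 0, 0.996, 0 and 0.0961 FPKM in the BAT of mice 1 to 5, against 45.2, 9.67, 64.9, 47.1 and 57.7 FPKM in muscle, where mouse 2 was low. *Fndc5*, the precursor of irisin, had 1.05 to 4.62 FPKM in BAT, against 22.6 to 57.8 FPKM in muscle (log2 fold change -3.96).

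Genes of muscle protein breakdown were lower in BAT for 9 of 14 and higher for 4. The ubiquitin ligases *Fbxo32* (atrogin-1) and *Trim63* (MuRF1) had 1.37 to 6.18 FPKM and 0 to 4.80 FPKM in BAT, highest in mouse 3, against 71.6 to 124 FPKM and 119 to 147 FPKM in muscle. Circadian clock genes were lower for 13 of 17 and higher for 1, with a median of -1.17, or -0.80 with 9 lower and 4 higher after rescaling to a common total. *Dbp*, an output gene of the clock, had 1.62, 2.83, 2.12, 2.54 and 8.18 FPKM in BAT, against 33.6, 21.7, 27.8, 38.7 and 49.3 FPKM in muscle (log2 fold change -3.46). *Arntl*, which encodes BMAL1, had 1.93 to 3.32 FPKM in BAT, against 4.81 to 7.51 FPKM in muscle, lowest in mouse 5 in both tissues, the mouse with the highest *Dbp* in both. *Hlf* was the clock gene higher in BAT, with 5.54 to 8.34 FPKM, against 2.09 to 4.63 FPKM in muscle.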
